A study of Mus musculus with 23 samples.

Results

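Calcr, Ramp3, Cckar, Aplnr and Calcrl encode peptide receptors, or in the case of Ramp3 a receptor partner, of the mouse striatum. They were chosen by the dKO minus WT differences of these arrays and their change between ages, so the genotype and age differences given for these genes are a description with no test. They are 5 of 20694 genes with a probe set of a single gene symbol, and 8 of 38143 such probe sets carry their symbols. Calcr, Ramp3 and Cckar have 1 probe set each, Aplnr has 2 and Calcrl has 3. Striatal RNA was hybridised to 23 arrays, which the design text calls biological replicates. The mutant genotype is labelled Ezh1; Ezh2 Camk Cre and is called the double knockout (dKO), and the controls are wild type (WT) littermates that the design text describes as of like age and sex. The 6-week groups hold 3 WT and 3 dKO arrays, the 3-month groups 4 WT and 3 dKO arrays, and the 6-month groups 4 WT and 6 dKO arrays.

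Ezh1 and Ezh2 are the enzymes of the Polycomb complex PRC2, each able to serve as its catalytic part, which methylates histone H3 and helps to keep developmental genes silent. The labels name the Cre driver only as Camk Cre. Camk2a-driven Cre lines act in forebrain neurons, and glia and vessel cells of such mice keep Ezh2. The calcitonin receptor (Calcr) and the calcitonin receptor-like receptor (Calcrl) are class B receptors coupled to G proteins, and their ligand choice depends on small membrane proteins, the RAMPs. Calcr alone binds calcitonin and with a RAMP binds amylin. Calcrl with Ramp1 binds calcitonin gene-related peptide and with Ramp2 or Ramp3 binds adrenomedullin. Cckar is the cholecystokinin A receptor, a class A receptor best known from the gut and from a few brain regions that regulate feeding. Aplnr, also of class A, binds apelin and the peptide encoded by Apela, and both Aplnr and Calcrl are known from the vessel wall.

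PRC2 is known to gather at promoters rich in CG dinucleotides, so the promoters are shown with each CG in capitals. Of the 5 genes, 3 (Calcr, Calcrl and Ramp3) matched the RefSeq promoter table of GRCm38.p6, which holds 300 bases per entry, 250 before and 50 after the start. Calcr has 2 annotated starts, and Cckar and Aplnr are only named.
Calcr, chr6:3763574-3763873, minus strand: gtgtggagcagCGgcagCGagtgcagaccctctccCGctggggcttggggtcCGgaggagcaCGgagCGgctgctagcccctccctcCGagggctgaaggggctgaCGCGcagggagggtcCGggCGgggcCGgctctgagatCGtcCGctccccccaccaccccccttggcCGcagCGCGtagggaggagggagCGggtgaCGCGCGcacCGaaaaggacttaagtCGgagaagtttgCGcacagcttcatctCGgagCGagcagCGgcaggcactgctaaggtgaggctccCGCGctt
Calcr, chr6:3764664-3764963, minus strand: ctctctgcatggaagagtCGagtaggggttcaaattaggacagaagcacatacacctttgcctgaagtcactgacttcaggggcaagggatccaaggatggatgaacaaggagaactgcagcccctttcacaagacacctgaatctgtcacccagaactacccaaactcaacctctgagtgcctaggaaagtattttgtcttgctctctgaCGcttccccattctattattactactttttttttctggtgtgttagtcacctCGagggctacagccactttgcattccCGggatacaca
Calcrl, chr2:84425217-84425516, minus strand: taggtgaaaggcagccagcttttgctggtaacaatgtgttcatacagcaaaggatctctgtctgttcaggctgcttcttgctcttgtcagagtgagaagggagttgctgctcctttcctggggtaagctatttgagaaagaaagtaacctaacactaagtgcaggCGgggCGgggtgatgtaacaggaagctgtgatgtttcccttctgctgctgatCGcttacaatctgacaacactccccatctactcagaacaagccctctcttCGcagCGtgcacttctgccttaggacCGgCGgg
Ramp3, chr11:6658283-6658582, plus strand: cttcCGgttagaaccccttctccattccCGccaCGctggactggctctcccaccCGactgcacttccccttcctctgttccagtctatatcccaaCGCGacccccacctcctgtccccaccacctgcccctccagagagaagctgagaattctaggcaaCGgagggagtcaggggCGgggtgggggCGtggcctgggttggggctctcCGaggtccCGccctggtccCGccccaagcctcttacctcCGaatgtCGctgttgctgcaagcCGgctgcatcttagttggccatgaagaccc
The first Calcr promoter holds 29 CG dinucleotides at a GC content of 70.0%, and 12.9% of 32851 promoters of the same length hold as many. The second holds 4, against a median of 7 over all promoters, and 68.6% hold as many. Ramp3 holds 15 (34.6% hold as many) and Calcrl 7 (52.1%). None of the 4 windows contains TATAAA on either strand, a motif that 13.6% of all promoters contain. Which of the Calcr starts is used in striatum was not measured by these arrays.

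The values are on the log2 scale after RMA, which summarises the probes of a probe set. Each probe set was centred, but which arrays set its centre is not given in the sources used here. A value of 0 need not be the middle of the 23 arrays. A value of 1 is therefore a level 2-fold above the centre of that probe set, and values of different genes cannot be ranked by level. For the same reason no cell type marker can be said to be present or absent in the tissue. Differences between groups come from a linear model over all 38143 probe sets (limma) with 1 mean per group, and are given on the log2 scale with the standard error after ±. A probe set is called where its p, after Benjamini-Hochberg adjustment over all probe sets, is under 0.05. The number of arrays limits the precision.

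The targeted gene Ezh1 has 4 probe sets. On the one with the largest spread over all arrays, WT stood at 6 weeks at 2.28, 2.28 and 2.07 and dKO at -0.37, -0.62 and 1.47. In the other dKO groups no array was above 0.00, and no WT array was below 1.39. On this probe set the third 6-week dKO array thus lay closer to the WT arrays than to the other dKO arrays. On the other 3 probe sets that array held 0.89, 0.62 and 0.13. The other dKO arrays of that age held -0.69 to -0.20 there and the WT arrays 0.89 to 1.92, and on each probe set it lay below every 6-week WT array and above both other dKO arrays. Since the 4 probe sets place it at different distances from WT, it is called here the library labelled dKO replicate 3. On the first probe set Ezh1 was lower in dKO by -2.05 ± 0.34 at 6 weeks, -2.0 ± 0.32 at 3 months and -2.10 ± 0.27 at 6 months, with limma adjusted p of 0.0105, 0.00312 and 1.7e-05. Without the library labelled dKO replicate 3 the 6-week difference was -2.70. The other 3 probe sets gave -1.86, -1.23 and -1.50 at 6 weeks, -1.10, -1.32 and -0.88 at 3 months and -1.25, -0.98 and -0.83 at 6 months. They were called at each age except the -1.10 at 3 months (adjusted p = 0.0542). The call of the -1.23 at 6 weeks was lost in 7 of 31 alternatives (limma adjusted p of up to 0.131). That of the -0.88 at 3 months was lost in 6 of 31 (up to 0.0901). The 6-week call of the first probe set was lost with quantile normalization (adjusted p = 0.0966), without the 5 arrays of high choroid plexus markers (0.114), and when WT replicate 1, WT replicate 2 or dKO replicate 2 of that age was left out. Ezh2 differences were -0.40, -0.45 and -0.43, and did not pass the test at any age (adjusted p = 0.601, 0.631 and 0.0671). Whether the Ezh2 probe set lies in the deleted part is not given in the sources used here.

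Calcr was higher in dKO striatum at all 3 ages, by 1.48 ± 0.53 at 6 weeks, 2.47 ± 0.49 at 3 months and 2.26 ± 0.42 at 6 months, which are 2.8-, 5.54- and 4.78-fold. The 3-month difference ranked 5th from the highest of 38143 probe sets.

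**Figure D1:**
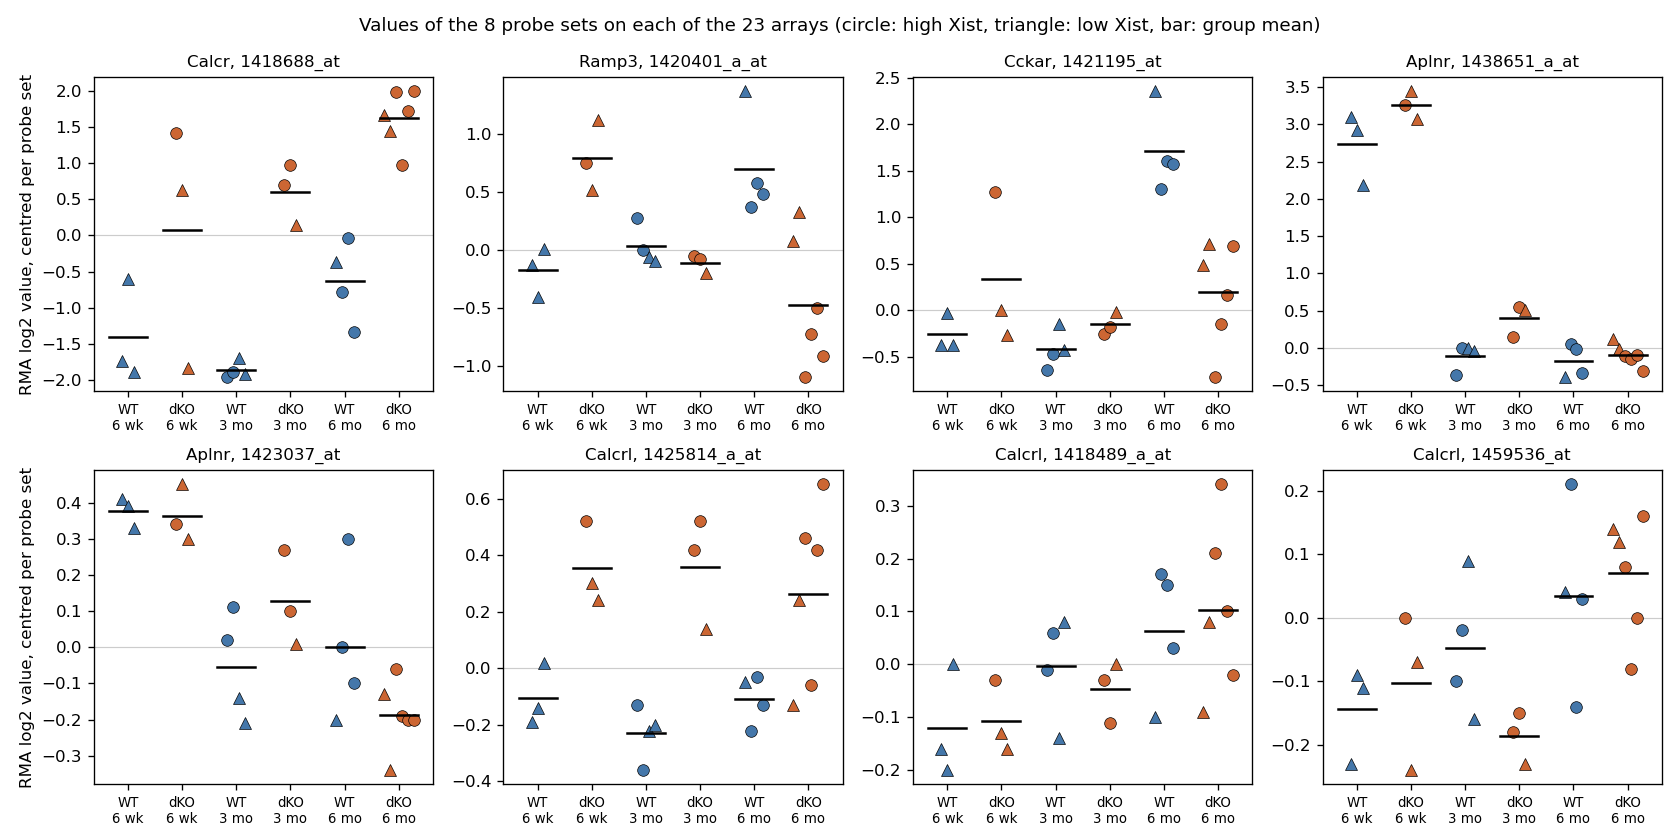
Centred RMA log2 values (y axis) of the 8 probe sets on each of the 23 arrays by genotype and age (x axis), with WT in blue, dKO in orange, circles for arrays of high Xist, triangles for low Xist and a bar for each group mean. Calcr separates WT from dKO at 3 and 6 months, Cckar is highest in WT at 6 months, and the first Aplnr probe set is high on the 6-week arrays of both genotypes.

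In single arrays, Calcr (chromosome 6) stood at -1.74, -0.60 and -1.89 in WT and at 1.42, 0.63 and -1.84 in dKO at 6 weeks. The groups overlapped through the library labelled dKO replicate 3, the array at -1.84, whose Calcr value lay among the WT values. At 3 months the WT arrays held -1.96, -1.89, -1.69 and -1.91 and the dKO arrays 0.70, 0.98 and 0.14, so every dKO array was above every WT array. At 6 months the WT arrays were at -0.37, -0.78, -0.03 and -1.33. The 6 dKO arrays of that age ran from 0.97 over a median of 1.69 to 1.99, again all above WT. Among all probe sets, 9.93% at 3 months and 9.99% at 6 months had groups that did not overlap, 5.16% and 4.8% with dKO above WT.

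Group means of Calcr fell in the order dKO at 6 months (1.63 ± 0.385, SD, n = 6), dKO at 3 months (0.61 ± 0.43, n = 3), dKO at 6 weeks (0.07 ± 1.7, n = 3), WT at 6 months (-0.63 ± 0.559, n = 4), WT at 6 weeks (-1.41 ± 0.709, n = 3) and WT at 3 months (-1.86 ± 0.122, n = 4). Each neighbouring pair in this order overlapped in its arrays. The genotype difference of Calcr changed between ages by 0.99 ± 0.72 from 6 weeks to 3 months, by -0.21 ± 0.64 from 3 to 6 months and by 0.77 ± 0.67 from 6 weeks to 6 months. None of these changes was much larger than its standard error. Without the library labelled dKO replicate 3 the 6-week difference was 2.44 ± 0.38 and the change to 3 months was 0.03. Without dKO replicate 1 of that age it was 0.81, and with array weights, which gave the library labelled dKO replicate 3 the highest weight of all arrays (5.32), it was 0.09.

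**Figure D2:**
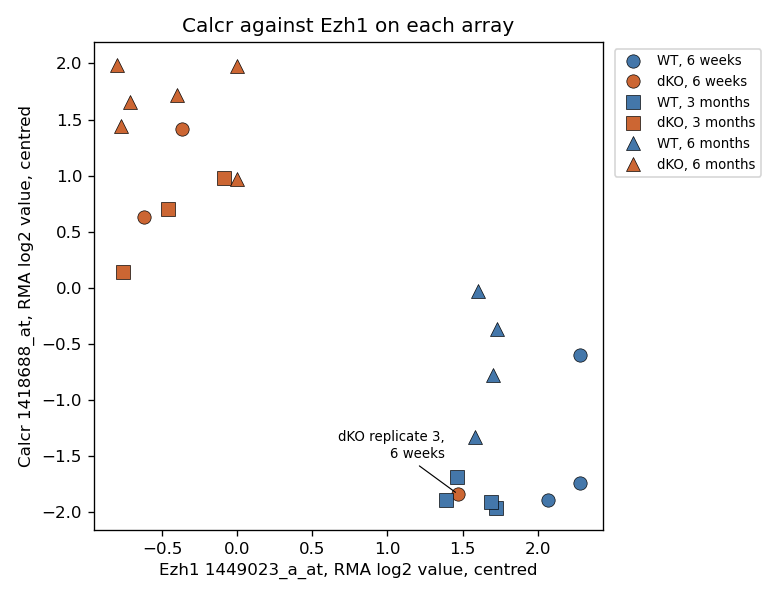
Calcr (y axis) against the first Ezh1 probe set (x axis), both as centred RMA log2 values, on the 23 arrays, with WT in blue, dKO in orange and a symbol for each age. The library labelled dKO replicate 3 at 6 weeks (Ezh1 1.47, Calcr -1.84) lies with the WT arrays on this probe set, and the other 11 dKO arrays have Ezh1 at or below 0.00 and Calcr at or above 0.14.

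The plot of Calcr against this Ezh1 probe set shows the arrays in 2 separate groups, so no correlation over all of them is given. All 11 WT arrays had Calcr below 0, between -1.96 and -0.03. Ramp3 gives the library labelled dKO replicate 3 another place: there it held 1.12, the highest 6-week value of either genotype.

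Ramp3, one of the RAMPs with which Calcr binds amylin and Calcrl binds adrenomedullin, was in dKO on different sides of WT at different ages. It was higher in dKO than WT at 6 weeks by 0.98 ± 0.29 (1.97-fold), differed by -0.14 ± 0.27 at 3 months and was lower in dKO at 6 months by -1.17 ± 0.23 (2.25-fold lower). The change from 6 weeks to 6 months was -2.14 ± 0.37, the 7th lowest of 38143 probe sets. Without the library labelled dKO replicate 3 the 6-week difference was 0.81 and that change -1.98.

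The 6-week WT arrays held Ramp3 (chromosome 11) at -0.13, -0.41 and 0.01 and the dKO arrays at 0.75, 0.52 and 1.12, without overlap. Such a separation was seen in 17.5% of all probe sets at that age, 7.43% with dKO above WT. At 3 months WT stood at 0.28, 0.00, -0.06 and -0.10 and dKO at -0.05, -0.08 and -0.20, and the groups overlapped. At 6 months WT stood at 1.37, 0.37, 0.58 and 0.48, and dKO ran from -1.10 over a median of -0.62 to 0.33. All 6 dKO arrays were then below all 4 WT arrays, as in 5.19% of all probe sets. The group order was dKO at 6 weeks (0.80 ± 0.304), WT at 6 months (0.70 ± 0.454), WT at 3 months (0.03 ± 0.174), dKO at 3 months (-0.11 ± 0.0813), WT at 6 weeks (-0.18 ± 0.211) and dKO at 6 months (-0.47 ± 0.569). In this order only WT at 6 months and WT at 3 months did not overlap as neighbours. Within WT, Ramp3 was 0.87 ± 0.27 higher at 6 months than at 6 weeks, and 0.54 higher without the arrays of high choroid plexus markers. The labels give no hybridisation batch, so age and a batch cannot be told apart in any comparison of ages within a genotype.

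Markers of thalamic or pallidal neurons moved with Ramp3 in part. Over 9 genes and 26 probe sets, with Ramp3 left out, the median per array ran from -0.48 to -0.37 in WT and from -0.19 to 0.36 in dKO at 6 weeks. At 6 weeks and at 6 months the array with the highest median was also the one with the highest Ramp3 value. These were the library labelled dKO replicate 3 at 6 weeks (0.36) and WT replicate 1 at 6 months (0.55). At 3 months they differed: dKO replicate 1 had the highest median (-0.01) and WT replicate 1 the highest Ramp3 value (0.28). In WT, 11 of the 26 probe sets were called higher at 6 months than at 6 weeks, against 6.64% of all probe sets, and 0 lower. Other marker lists also had such calls: astrocytes 9 higher and 0 lower of 31, microglia 3 and 0 of 16, and hypothalamic neurons 2 and 0 of 13. Endothelial cells had 2 and 3 of 22, mural cells 1 and 3 of 23, and medium spiny neurons 0 and 2 of 28. Cortical neurons had 0 and 1 of 18, oligodendrocytes 0 and 4 of 23, and choroid plexus 0 and 0 of 17. Between genotypes at 6 weeks 2 of the 26 thalamic or pallidal probe sets were called higher in dKO and 0 lower (0.202% of all were called). Astrocyte markers had 3 higher and 0 lower of 31 in that comparison, and the remaining marker lists had no call. At that age the thalamic or pallidal list was thus not the only one with calls. Between genotypes at 6 months 4 of the 26 thalamic or pallidal probe sets were called higher in dKO and 1 lower, while Ramp3 was lower in dKO. At 6 months the medians of this list overlapped between genotypes, from 0.03 to 0.55 in WT and from -0.02 to 0.36 in dKO. The part of these markers in the Ramp3 differences was not tested.

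Cckar was close to its centre in both genotypes until 3 months, and at 6 months it was high in WT. WT at 6 months was 1.96 ± 0.32 (3.9-fold) above WT at 6 weeks, the 19th highest of 38143 probe sets. Age and a hybridisation batch cannot be told apart in this difference either. The dKO arrays of 6 months were lower than WT by -1.51 ± 0.27 (2.85-fold lower), against differences of 0.59 ± 0.34 at 6 weeks and 0.27 ± 0.32 at 3 months. The genotype difference changed by -1.78 ± 0.42 from 3 to 6 months and by -2.10 ± 0.44 from 6 weeks to 6 months.

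In single arrays, Cckar (chromosome 5) stood at -0.37, -0.03 and -0.38 in WT and at 1.27, 0.00 and -0.27 in dKO at 6 weeks, with overlap. The array of dKO replicate 1 was far above the rest, and without it the 6-week difference was 0.12. Without the library labelled dKO replicate 3 it was 0.89. At 3 months WT held -0.64, -0.47, -0.15 and -0.43 and dKO -0.26, -0.18 and -0.02, again overlapping. At 6 months WT held 2.35, 1.30, 1.60 and 1.57, and dKO ran from -0.72 over a median of 0.32 to 0.71. The lowest WT array was thus above the highest dKO array. Quantile normalization of the deposited values moved the 6-month difference to -2.41.

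The group order of Cckar was WT at 6 months (1.71 ± 0.452), dKO at 6 weeks (0.33 ± 0.822), dKO at 6 months (0.20 ± 0.556), dKO at 3 months (-0.15 ± 0.119), WT at 6 weeks (-0.26 ± 0.198) and WT at 3 months (-0.42 ± 0.203). WT at 6 months did not overlap the next group, and all later neighbours in the order overlapped. Markers of hypothalamic neurons (11 genes, 13 probe sets) had medians from -0.30 to 0.01 in WT at 6 weeks, from 0.06 to 0.42 in WT at 6 months and from -0.08 to 0.26 in dKO at 6 months. Their part in the Cckar values was not tested.

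Choroid plexus markers (10 genes, 17 probe sets) were high on 5 arrays, with medians from 1.67 to 3.22, and below 1 on the other arrays. The 5 arrays were WT replicate 2 and dKO replicate 1 at 6 weeks, WT replicate 1 at 3 months, and WT replicate 1 and dKO replicate 2 at 6 months. They include the highest WT and dKO values at 6 weeks of Calcr (-0.60 and 1.42) and Cckar (-0.03 and 1.27). At 6 months they include the highest WT and dKO values of Ramp3 (1.37 and 0.33) and Cckar (2.35 and 0.71). At 3 months WT replicate 1 held the highest WT value of Ramp3 (0.28) and the lowest of Calcr (-1.96) and Cckar (-0.64). The lowest WT value of Ramp3 at 6 weeks (-0.41) was that of WT replicate 2. Without the 5 arrays the differences at the 3 ages, from young to old, were 1.22, 2.44 and 2.38 for Calcr. They were 0.88, -0.06 and -1.11 for Ramp3, and 0.24, 0.20 and -1.40 for Cckar. The direction at each age was as with all arrays.

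**Figure D3:**
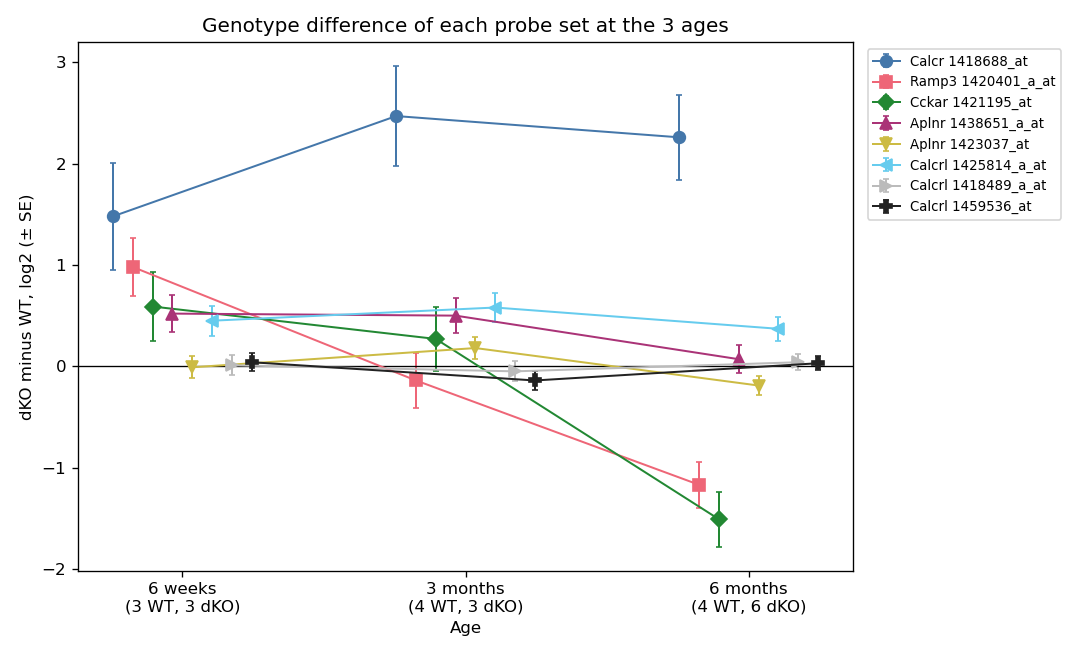
Difference dKO minus WT on the log2 scale (y axis, points with SE bars from limma) of the 8 probe sets by age (x axis). Calcr stays above 0 at 1.48, 2.47 and 2.26, while Ramp3 goes from 0.98 to -1.17 and Cckar from 0.59 to -1.51.

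In the plot of genotype differences by age, Ramp3 and Cckar stand above 0 at 6 weeks and below 0 at 6 months. The calls of the model are given for description alone, since the genes were chosen by these contrasts. No probe set of the 8 was called at 6 weeks (0.202% of all probe sets were), and Calcr was at 3 months (0.262% of all, 0.239% higher). At 6 months 4 were called, Calcr and Calcrl among the 7.62% called higher and Ramp3 and Cckar among the 8.07% called lower. The change of the genotype difference was called for Ramp3 and Cckar from 6 weeks to 6 months (0.71% of all, 0.262% with a lower difference later) and for Cckar from 3 to 6 months (1.11%, 0.627% lower). No probe set was called from 6 weeks to 3 months (0.0105% of all). Nothing is read from these counts.

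The 2 Aplnr probe sets were higher on the young arrays than on the older ones in both genotypes. The first (chromosome 2) averaged 3.00 ± 0.436 (SD, n = 6) on the 6-week arrays and -0.03 ± 0.265 (n = 17) on the later arrays, a difference of 3.02 or 8.13-fold. The 6-week arrays ran from 2.19 to 3.44 and the later ones from -0.39 to 0.55, so they did not overlap. This difference ranked number 2 of 38143 probe sets, of which 1.31% had all 6-week arrays above all others and 0.0157% did so with a mean difference over 2. The labels give no hybridisation batch, and whether the ages were run together is not given in the sources used here, so age and a batch of that kind cannot be told apart. The second probe set differed the same way by 0.43 (1.34-fold), with 0.37 ± 0.0576 on the 6-week arrays and -0.06 ± 0.177 on the later ones. The values of both correlated at r = 0.81 over 23 arrays and at 0.18 within groups.

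Genotype differences of Aplnr were small beside that step. At 6 weeks the first probe set held 3.10, 2.93 and 2.19 in WT and 3.26, 3.44 and 3.07 in dKO, overlapping by a narrow margin, and dKO was 0.52 ± 0.18 higher. Without the library labelled dKO replicate 3 this was 0.62, without WT replicate 3 it was 0.24, and with quantile normalization it was 0.96. At 3 months WT held -0.36, 0.00, 0.00 and -0.04 and dKO 0.15, 0.55 and 0.51, without overlap and 0.50 ± 0.17 higher in dKO. At 6 months WT held -0.39, 0.06, -0.01 and -0.33, dKO ran from -0.31 over a median of -0.10 to 0.12, and the overlapping groups differed by 0.07 ± 0.14. The second probe set gave -0.01 ± 0.11, 0.18 ± 0.11 and -0.19 ± 0.09 at the 3 ages. The genotype values of the 2 probe sets thus differed at 6 weeks, a gap that was not tested. In the order of group means of the first probe set, dKO and WT at 6 weeks overlapped, as did dKO at 6 months, WT at 3 months and WT at 6 months with their neighbours, while dKO at 3 months overlapped neither neighbour.

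Calcrl was higher in dKO at each age by 1 of its 3 probe sets. That probe set, the first of this gene in the plot of values (chromosome 2), held -0.19, -0.14 and 0.02 in WT and 0.52, 0.30 and 0.24 in dKO at 6 weeks, a difference of 0.45 ± 0.15 without overlap. At 3 months it held -0.13, -0.36, -0.22 and -0.20 in WT and 0.42, 0.52 and 0.14 in dKO, a difference of 0.58 ± 0.14 (1.5-fold) without overlap. At 6 months WT held -0.05, -0.22, -0.03 and -0.13 and dKO ran from -0.13 over a median of 0.33 to 0.65, a difference of 0.37 ± 0.12 with overlap. This difference changed between ages by 0.13 ± 0.21 from 6 weeks to 3 months and by -0.21 ± 0.19 from 3 to 6 months. Without the library labelled dKO replicate 3 the 6-week difference was 0.51.

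The other Calcrl probe sets gave differences between -0.14 and 0.04 at all ages, and their values correlated with those of the first at -0.02 for the second and 0.00 for the third over 23 arrays. The 3 probe sets of this gene therefore disagree, and the array data do not say which transcript each detects. Endothelial markers (14 genes, 22 probe sets), the cell type in which Calcrl is best known, had medians between -0.21 and 0.13 in all 6 groups, and mural markers (11 genes, 23 probe sets) between -0.20 and 0.20. Their part in the Calcrl values was not tested. In tissue RNA, fewer cells of a type and less RNA per cell cannot be told apart.

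Values within arrays of like Xist, the RNA of the inactive X chromosome, were computed because the groups were not balanced in it. The design text nonetheless describes the WT littermates as of like sex. The numbers of arrays with high and low Xist were 0 and 3 in WT and 1 and 2 in dKO at 6 weeks, 2 and 2 against 2 and 1 at 3 months, and 3 and 1 against 4 and 2 at 6 months. At 6 months Calcr was 2.38 higher in dKO among arrays of high Xist and 1.93 higher among arrays of low Xist. Ramp3 was lower by -1.29 and -1.16 and Cckar by -1.49 and -1.76 in the same strata. Calcrl (first probe set) was 0.49 and 0.11 higher, and the first Aplnr probe set differed by -0.07 and 0.44. At 3 months Calcr was 2.77 and 1.94 higher, and at 6 weeks, where only low Xist held both genotypes, the differences were 0.81 for Calcr, 1.0 for Ramp3 and 0.12 for Cckar. Ramp3 at 6 months was higher on the low-Xist arrays of both genotypes, at 1.37 in the single WT array and 0.08 and 0.33 in dKO. The arrays at 1.37 and 0.33 are also those of high choroid plexus markers at that age (medians of 3.19 and 3.22). On these arrays Xist and the choroid plexus markers cannot be told apart. The low-Xist dKO array at 0.08 had a choroid plexus median of -0.09. The part of either in Ramp3 was not tested. The high-Xist arrays ran from 0.37 to 0.58 in WT and from -1.10 to -0.50 in dKO.

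Medium spiny neurons, the main neurons of the striatum, have markers that were lower in the 6-month dKO arrays. Of 28 probe sets of 12 genes, 17 were called lower and 0 higher at 6 months in limma, against 8.07% and 7.62% of all probe sets, and none was called at 6 weeks or 3 months. The array medians at 6 months ran from 0.00 to 0.26 in WT and from -0.69 to -0.24 in dKO. This moves with the lower Ramp3 and Cckar values of that age, and its part in them was not tested. Calcr was higher in dKO on the same arrays. At 6 weeks the medium spiny neuron medians ran from 0.20 to 0.39 in WT and were 0.26, -0.45 and -0.21 in dKO. The means of Ramp3 and Cckar were higher in dKO at that age. Of the other marker lists, to be read against the same shares, cortical neurons had 2 of 18 probe sets called higher and 2 lower at 6 months, astrocytes 2 and 4 of 31, microglia 0 and 2 of 16, and oligodendrocytes 0 and 6 of 23. Endothelial cells had 4 and 2 of 22, mural cells 1 and 4 of 23, hypothalamic neurons 1 and 1 of 13, and choroid plexus 0 and 0 of 17.

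Calcr lies on chromosome 6, as Ezh2 does, and Ramp3 on chromosome 11, as Ezh1 does. At 6 months the probe sets of chromosomes 6 and 11 were called in 15.5% and 18.5%, against 16.5% of all probe sets with a known chromosome. At 6 weeks these shares were 0.205%, 0.728% and 0.213%, and at 3 months 0.205%, 0.401% and 0.281%. The chromosome 11 calls, 20 at 6 weeks and 11 at 3 months, include the called probe sets of the targeted gene Ezh1 itself. Whether alleles linked to the targeted loci touch the 2 genes was not tested.

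Ligands, partners and relatives of the 5 receptors were called at 6 months at a rate near that of all probe sets. In 6 lists of peptide ligands and receptors outside the 5 genes, 81 of 90 genes were measured by 128 probe sets, and none was called at 6 weeks or 3 months in limma, where the shares over all probe sets were 0.202% and 0.262%. At an unadjusted p under 0.05 there were 18 and 7. At 6 months 9 were called higher and 7 lower, 12.5% of the list probe sets against 15.7% of all, and the median difference was 0.01 against 0.00. At an unadjusted p under 0.05 there were 32 at that age. The lists were drawn up with earlier results of these data known.

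Among the calcitonin family ligands (5 genes, 10 probe sets), adrenomedullin (Adm), a ligand of Calcrl with Ramp2 or Ramp3, was the only gene called at 6 months. By 1 of its probe sets it was higher in dKO by 0.45 ± 0.12 (limma adjusted p = 0.0129), and its other probe set by 0.46 ± 0.17 (0.0673). Without WT replicate 4 of 6 months the call was lost (adjusted p = 0.0693). Calca, which encodes calcitonin and calcitonin gene-related peptide, differed by 0.71 ± 0.34 and 0.16 ± 0.09 by its 2 probe sets, with adjusted p of 0.169 and 0.244. Calcb, amylin (Iapp) and Adm2 differed by between -0.10 and 0.10 and were not called. Calca and Iapp, whose peptides bind Calcr, were thus not called at any age.

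Ramp1, which makes Calcrl a receptor of calcitonin gene-related peptide, was higher in dKO at 6 months by 0.32 ± 0.07 (limma adjusted p = 0.00502), while its other 2 probe sets differed by 0.07 and -0.34 and were not called. Crcp, a cytoplasmic partner of Calcrl that is also a subunit of RNA polymerase III, was higher by 0.35 ± 0.09 (adjusted p = 0.0153), with no overlap of the arrays. Ramp2 differed by 0.01 ± 0.10 at 6 months and by 0.40 ± 0.12 at 6 weeks (adjusted p = 0.981 and 0.241). At the same age Ramp3 differed by -1.17 ± 0.23.

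For Cckar, none of the 4 probe sets of its ligands Cck and Gast and of the second cholecystokinin receptor Cckbr was called at any age. At 6 months Cck differed by 0.15 ± 0.47, Cckbr by -0.16 ± 0.32 and -0.09 ± 0.25, and Gast by -0.20 ± 0.14. The interval around Cck is wide, since its values in WT at 6 months ran from -1.54 to -0.04 and those in dKO from -1.83 to 0.30. For Aplnr, both ligand genes were called at 6 months in opposite directions. Apela was higher by 0.44 ± 0.09 by 1 probe set (adjusted p = 0.0028), with no overlap, and differed by 0.00 ± 0.09 by the other. Apelin (Apln) was lower by -0.29 ± 0.08 (adjusted p = 0.0183), with overlapping arrays. Its call was lost in 2 alternatives, with an adjusted p of up to 0.067.

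**Figure D4:**
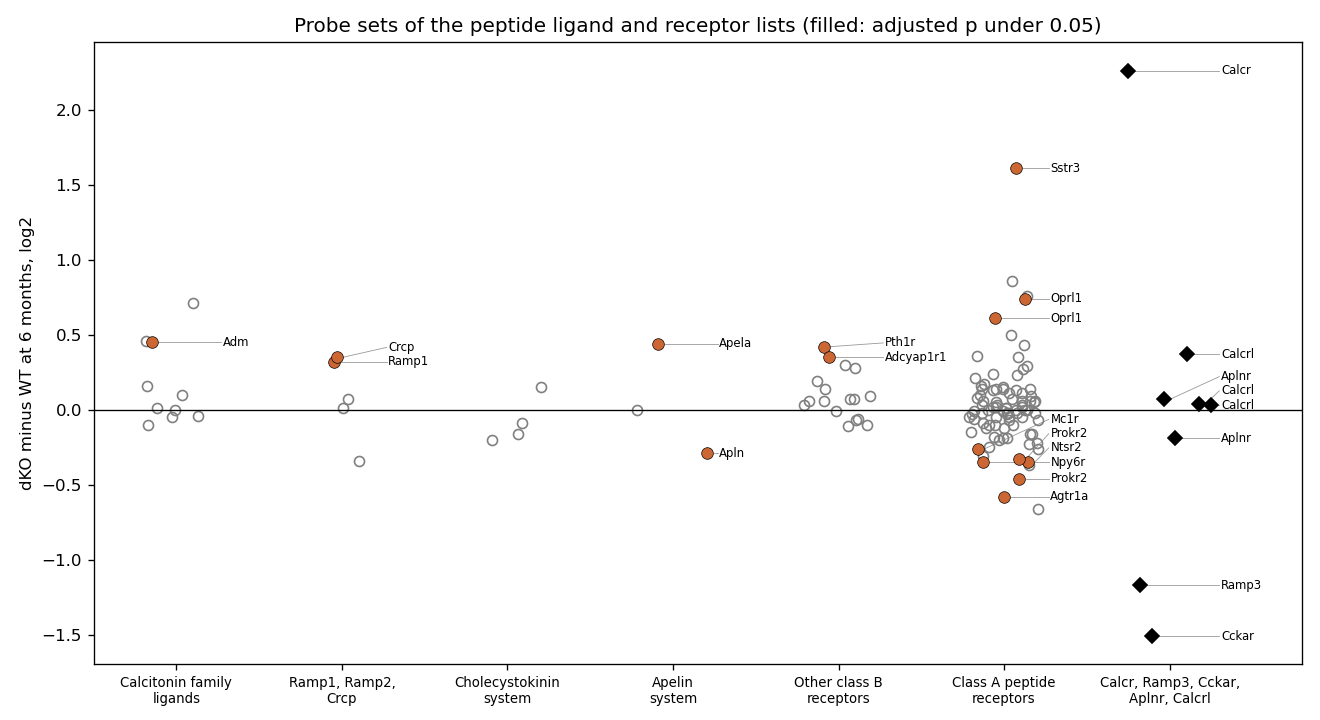
Difference dKO minus WT at 6 months on the log2 scale (y axis) of the 128 list probe sets by list (x axis), filled and named where the limma adjusted p was under 0.05, beside the 8 probe sets of the 5 genes as black diamonds. Sstr3 at 1.61 is the highest called list probe set and Agtr1a at -0.58 the lowest, while Calcr stands at 2.26 and Cckar at -1.51.

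The plot of the lists at 6 months puts Calcr, Ramp3 and Cckar outside the range of the list probe sets, which is -0.66 to 1.61, and Aplnr and Calcrl inside it. The 5 genes were chosen by such differences, and nothing is read from this. Of 17 probe sets of 12 other class B receptors, 2 were called higher and 0 lower. These were Pth1r, the parathyroid hormone receptor, at 0.42 ± 0.14 (limma adjusted p = 0.0446) and Adcyap1r1, the receptor of the peptide PACAP, at 0.35 ± 0.07 (0.00118). The other Adcyap1r1 probe sets stood at 0.06 each. The Pth1r call was lost in 19 alternatives, with an adjusted p of up to 0.234.

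Of 89 probe sets of 56 class A peptide receptors, 3 were called higher and 6 lower. The highest was Sstr3, a somatostatin receptor, at 1.61 ± 0.30 (limma adjusted p = 0.00102), while its other probe set gave 0.02 ± 0.11. Its 6-month values were -1.47, -0.63, -1.33 and -1.26 in WT and ran from 0.00 to 0.62 in dKO, without overlap. Oprl1, the nociceptin receptor, was higher by 0.74 ± 0.13 and 0.61 ± 0.10 by 2 probe sets (adjusted p = 0.00041 and 0.000321), and by 0.35 by the third (0.0696). The angiotensin receptor Agtr1a was the lowest at -0.58 ± 0.10 (0.000664). It held -0.04, 0.09, 0.00 and 0.10 in WT and ran from -0.70 to -0.39 in dKO, without overlap.

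The remaining lower calls at 6 months were Prokr2, a prokineticin receptor, Npy6r of the neuropeptide Y receptors, the neurotensin receptor Ntsr2 and the melanocortin receptor Mc1r. Npy6r and Ntsr2 were lower by -0.35 ± 0.09 each (limma adjusted p = 0.00674 and 0.00744). Prokr2 was lower by -0.46 ± 0.15 and -0.33 ± 0.09 by 2 probe sets (0.0445 and 0.0216), and the calls were lost in 19 and 4 alternatives. Mc1r was lower by -0.26 ± 0.09 (0.0463) by 1 probe set and higher by 0.36 (0.0517) by the other, and its call was lost in 21 alternatives. Other receptor genes of the lists (Glp2r, Galr3, Mc4r, Npbwr1, Npffr1, Npsr1, Prlhr, Rxfp3 and Rxfp4) were not analysed here.

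With age in WT, 15 list probe sets were called higher at 6 months than at 6 weeks and 1 lower, 12.5% against 15.8% of all. Among the higher ones were Qrfpr at 1.03 ± 0.31 (limma adjusted p = 0.0272) and Npy2r at 0.91 ± 0.26 (0.021), the receptors of the peptide QRFP and of neuropeptide Y. The kappa opioid receptor Oprk1 was lower by -1.0 ± 0.23 by 1 of 2 probe sets (0.00556). These genes were chosen after their values were seen. In the same comparison 6.64% of all probe sets were called higher and 9.16% lower. Age and a hybridisation batch cannot be told apart in it. Xist was high on 0 of 3 WT arrays at 6 weeks and on 3 of 4 at 6 months. With Xist as covariate the 6026 calls over all probe sets became 3518. Between WT at 6 months and WT at 6 weeks Cckar differed by 1.96 ± 0.32, Ramp3 by 0.87 ± 0.27 and Calcr by 0.78 ± 0.49. The Aplnr probe sets differed by -2.91 ± 0.17 and -0.38 ± 0.11. Cckar, Ramp3, Calcr and Aplnr were chosen with results of these arrays known, so their differences are a description with no test.

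Genes with the pattern most like each of the 5 were taken by the Pearson correlation of their probe set over 23 arrays, which share groups, so a correlation of deviations from the group means is given as the second value. For Calcr these were Tmem176a (0.95 and 0.77), Aldh1a2 (0.94 and 0.72), Pygl (0.94 and 0.74), Otof (0.92 and 0.65) and Qprt (0.92 and 0.77). Calcr varied most within dKO at 6 weeks (SD 1.7, against 0.122 to 0.709 in the other groups). That group holds the library labelled dKO replicate 3, and the part of this array in the second values was not tested. Aldh1a2, the retinoic acid synthesis enzyme, had genotype differences of 1.60, 2.67 and 2.35 at the 3 ages beside 1.48, 2.47 and 2.26 for Calcr. For Ramp3 they were Plekhg1 (0.87 and 0.74), Dip2a (0.86 and 0.77) and Bmp2k (0.84 and 0.75), and Plekhg1 differed by 0.61, 0.02 and -0.85. For Cckar they were Fnbp1 (0.86 and 0.58), Cyp27a1 (0.84 and 0.78) and Asah2 (0.84 and 0.66).

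For Aplnr the most alike were Srd5a1 (0.96 and -0.13), Mkrn3 (0.95 and 0.17) and Pcyt2 (0.95 and 0.10), whose likeness lay between groups and was near 0 within them. For Calcrl they were Hacd4 (0.85 and 0.67), Tubb6 (0.81 and 0.40) and Zfp618 (0.81 and 0.58). Without the 2 arrays farthest from the median of each gene the correlations over arrays were between 0.75 and 0.95. For Calcr the arrays left out were the 6-month dKO arrays at 1.98 and 1.99, and the library labelled dKO replicate 3 was kept. Among the 5 genes themselves the highest were Calcr with Calcrl at 0.73 (0.43 within groups) and Ramp3 with Cckar at 0.55 (0.42). Calcr and its partner Ramp3 stood at -0.36 (-0.24 within groups).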

How the data were processed

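Expression was measured on 23 arrays of striatal RNA. The authors deposited log2 values. Per the submitters' processing notes they come from RMA, of unnamed version. No source used here gives the array design, annotation release or build. The values are centred per probe set, and in 39666 of 45101 probe sets (87.95%) an array stands at exactly 0. The deposited series value table was used, 21 columns of a second deposited table being identical to it, and 2 columns of per-sample values that share a name there were not used. Gene symbols came from the second table, and 1160 were replaced by the current ones of RefSeq (GRCm38.p6). Probe sets with 1 symbol (38143) were tested, those with several (1253) or none (5705) were not.

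Each array went into its group by its labels. One mean per group was fitted with lmFit and eBayes of limma 3.58.1 in R 4.3.3 (residual df 17), two-sided, with Benjamini-Hochberg adjustment. The fit was tested on simulated data. Background correction, a filter on dim probe sets and the slide as a block could not be run on centred values without scanner files. The alternatives were quantile normalization, 1 probe set per gene, probe sets of above-median SD, trended and robust eBayes, array weights, Xist as covariate, a block on replicate number and each array left out. Added after seeing the data were fits on 6-month arrays of high Xist (above -3) and without arrays of a choroid plexus median above 1.

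The 5 genes, the gene lists and the marker lists were chosen with earlier results of these data known. Named were all probe sets of the 5 genes, Ezh1, Ezh2, the 4 small family lists, up to 6 called rises and 6 called falls of the receptor lists at 6 months, and the 3 genes (5 for Calcr) most correlated with each of the 5. Figures were drawn with matplotlib 3.10.9.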

Additional observations from a re-analysis of the deposited data

Results flagged for a closer look

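On the first Aplnr probe set, WT replicate 1 at 3 months stood at -0.36, apart from the other 3 arrays of its group, of which the nearest was at -0.04. The gap was 0.88 of the group's range. Of 72 groups of 4 to 10 arrays looked at this way 1 stood out, and chance gives about 1 in 20.

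By 1 of the 3 probe sets of the nociceptin receptor Oprl1, the genotype difference changed from 3 to 6 months by 0.69 (limma adjusted p = 0.0337). The other probe sets gave 0.54 (0.199) and 0.58 (0.18) and did not pass. The call was lost in 9 alternatives, with an adjusted p of up to 0.139.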

How the results depend on the processing

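Counts of called probe sets moved by over 1.5 times as follows. At 6 weeks the 77 calls became 43 with 1 probe set per gene, 4889 with array weights, 167 with Xist as covariate, 37 with the replicate block, 142 with high-Xist arrays only at 6 months and 32 without the arrays of high choroid plexus markers. The last setting moved the share called higher from 54.5% to 28.1%, quantile normalization moved it to 43.2%, and leaving out the library labelled dKO replicate 3 moved it to 77.9% of 95 calls. At 3 months the 100 calls became 192 with quantile normalization and 367 with array weights. At 6 months the 5984 calls became 3727 with 1 probe set per gene, which tests 20694 probe sets. For the change from 6 weeks to 3 months, 4 calls became 14 with quantile normalization, 8 among probe sets of above-median SD, 2 with trended and robust eBayes, 1247 with array weights, 7 with Xist, 9 with high-Xist arrays and 15 without the choroid plexus arrays, and quantile normalization moved the share called higher from 50% to 78.6%. For 3 to 6 months, 425 became 1633 with array weights, 1536 with high-Xist arrays and 690 without the choroid plexus arrays. For 6 weeks to 6 months, 271 became 3623 with array weights, 574 with Xist and 1172 with high-Xist arrays. In WT, 6026 became 3812 with 1 probe set per gene, 13853 with array weights, 3518 with Xist and 9723 with high-Xist arrays. The cause was not tested beyond the number of probe sets or arrays.

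Leaving out 1 array gave 15 to 408 calls at 6 weeks, 43 to 129 at 3 months, 4372 to 7176 at 6 months, 3 to 15, 137 to 820 and 146 to 628 for the changes (6 weeks to 3 months, 3 to 6 months, 6 weeks to 6 months) and 2910 to 8022 in WT with age. The highest 6-week count came without dKO replicate 1 and the lowest without WT replicate 2. List calls at 6 months (16) ranged from 12 to 20 over all alternatives. Of the 16, 10 were kept wherever tested and 6 were lost at least once, and 0 changed sign.

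The genotype differences of Calcr, Ramp3, Cckar and of the first Calcrl probe set kept their sign at every age in all 32 alternatives. Many alternatives cannot move a given difference, such as leaving out an array of another age, so nothing is read from this count. The ranges at 6 weeks were 0.09 to 2.44, 0.81 to 1.22, 0.12 to 0.89 and 0.35 to 0.51. At 6 months they were 2.02 to 2.46, -1.33 to -0.95, -2.41 to -1.29 and 0.24 to 0.49. The other Calcrl and the Aplnr probe sets changed sign in some alternatives where the difference was near 0. No pairing by replicate number was evident: over 10 same-number pairs of an age the deviations correlated between -0.36 and 0.15, with 2 over 0.1. With so few pairs this does not settle whether the samples were paired. With the replicate block there were 5441 calls at 6 months, and Apln lost its call (adjusted p = 0.067). The centred values carry no signal over background, so dim probe sets could not be told from bright ones.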
